A study of Homo sapiens with 12 samples.

Results

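The ZNF genes are a large family of human zinc finger genes, and 177 of them were expressed in Huh7 hepatocellular carcinoma cells at a mean of at least 5 TPM in the control libraries. TPM, a relative measure of transcripts, divide the reads of a gene by its length and scale each library to a fixed total, so levels can be compared between genes. The members were chosen by symbol (ZNF, a number and at most 1 letter), by the absence of the word pseudogene in the gene description, and by that control level. The deposited table lists 60666 genes, of which 561 had such a symbol, 49 were described as pseudogenes and 512 were kept. Of these 512, 177 reached the control level and 335 did not. All 177 passed the filter for testing (at least 1 TPM in at least 3 libraries), and all have an annotated coding sequence in GENCODE v29 (GRCh38). The rule used the control libraries, which are also an arm of the comparison, so control levels are given as a description and the comparison with the knockdown is not independent of how the genes were selected.

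The comparison was between Huh7 cells stably transduced with lentivirus carrying shFAM111B, a short hairpin RNA against FAM111B, and Huh7 control cells, for which the methods name lentiviral control sequences, with 3 libraries in each group. Huh7 is an established human liver cancer line, grown here in high-glucose DMEM with foetal serum, and both groups came from this 1 line. The study asked which genes change when FAM111B, a protein with a trypsin-like protease domain, is silenced in liver cancer cells. Hep3B libraries of the same series were not analysed here. The sources do not say whether the 3 libraries of a group came from separate cultures, so p-values measure the spread between these libraries, which may be technical.

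Most ZNF proteins carry a row of C2H2 zinc fingers, in which a pair of cysteines and a pair of histidines hold a zinc ion and the residues between them read DNA. Many also carry a KRAB domain, which binds the corepressor TRIM28 and through it the histone methyltransferase SETDB1 and heterochromatin proteins, and this silences transposable elements and some genes. The genes stand in clusters of recent duplicates, above all on chromosome 19, and other members without KRAB serve as promoter-binding activators, ribosome or spindle factors. Sequence was taken from the longest coding transcript of each gene in GENCODE v29. By the pattern C, 2 to 4 residues, C, 12 residues, H, 3 to 5 residues, H, 173 of the 177 genes encoded at least 1 finger, with a median of 9 and a maximum of 31. A KRAB-like pattern, whose letters were set after the values were known, stood in 89 genes and was not found in 88. It was not checked against annotated domains, so a gene without the pattern may still carry a KRAB domain.

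A single finger is shown for 4 genes that the results turn on, as coding DNA from GENCODE v29 transcripts on GRCh38, 5′ to 3′ in the sense of the gene, with the codons of the zinc-binding cysteines and histidines in capitals. ZNF770 had the largest fall, ZNF431 the largest rise, ZNF708 lies in the same gene cluster as ZNF431 and fell, and ZNF91 had 31 finger patterns, as did ZNF142. The ZNF770 stretch is at chr15:34983288-34983350 (minus strand), ZNF431 at chr19:21183759-21183821 (plus strand), ZNF708 at chr19:21294144-21294206 (minus strand) and ZNF91 at chr19:23362115-23362177 (minus strand), each within a coding exon.
ZNF770: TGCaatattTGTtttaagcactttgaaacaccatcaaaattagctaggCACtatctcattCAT
ZNF431: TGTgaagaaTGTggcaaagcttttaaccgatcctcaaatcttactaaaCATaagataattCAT
ZNF708: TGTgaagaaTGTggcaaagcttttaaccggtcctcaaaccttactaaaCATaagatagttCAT
ZNF91: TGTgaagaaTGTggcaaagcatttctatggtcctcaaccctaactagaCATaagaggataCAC
The ZNF431 stretch (finger 11 of 12) and the ZNF708 stretch (finger 4 of 14) are a selected pair, so their likeness is not that of the whole genes. They shared 60 of 63 bases. Such repeats bear on the measurement, since a read from a duplicated stretch can be assigned to the wrong gene. Of the 31-base words in a member's transcript, a median of 2.93% also occurred in a transcript of another gene. The share was under 1% in 71 members and over 30% in 11, and it was 15.8% for ZNF431, 18.9% for ZNF708, 19.7% for ZNF91 and 9.95% for ZNF770.

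FAM111B itself, the target of the hairpin, measured 7.84, 8.29 and 7.99 TPM in the control libraries and 0.96, 1.13 and 0.84 TPM in the shFAM111B libraries. The groups did not overlap, and the log2 fold change, taken from log2(TPM + 1) throughout, came to −2.20 ± 0.11 (SE, limma adjusted p = 6.09e-06). All 8 hepatocyte markers examined passed the filter, and their summed level was 25179 to 25607 TPM in the control and 39806 to 44836 TPM in the shFAM111B libraries, where AFP rose from 7044.67 to 7411.08 TPM up to 21852.7 to 25038.1 TPM. The markers did not move in 1 direction. At a limma adjusted p under 0.05, 4 were higher (AFP, APOA1, TTR and GPC3) and 4 were lower (ALB, TF, SERPINA1 and APOB). APOB had the largest fall of the 8, at −2.27. Of 7 markers of immune, endothelial and fibroblast cells, the summed level was 26.2 to 29.4 TPM in the control and 37.1 to 42.7 TPM in the shFAM111B libraries. Of these, CD68 was the most abundant, CD68 and COL1A2 were higher by the test, and COL1A1 and VWF were under 1 TPM in every library. Whether the change in these markers plays a part in the values of the ZNF genes was not tested. Over the tested genes, log2(TPM + 1) of replicate libraries correlated at Pearson's r of 0.969 to 0.984 and between the groups at 0.865 to 0.883, and the depth of the libraries is unknown since TPM keep none.

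Silencing FAM111B was accompanied by lower levels of most of the ZNF genes. The TPM of the 177 genes summed to 2581, 2594 and 2627 in the control libraries and to 1839, 1846 and 1913 in the shFAM111B libraries. The median gene stood at 9.30, 9.43 and 9.44 TPM in the control and at 5.61, 5.73 and 5.73 TPM in the shFAM111B libraries. The 3 shFAM111B libraries were thus alike and lay below all 3 control libraries on both measures. Of the 177 genes, 78 fell under a mean of 5 TPM, 14 fell under 2 TPM and 99 stayed at 5 TPM or above. No member was listed at 0 in any library. A bulk level cannot tell fewer transcribing cells from less RNA per cell.

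At a change of at least 2-fold with a limma adjusted p under 0.05, 57 of the 177 genes (32.2%) were lower and 0 were higher in shFAM111B cells. Over all 14394 tested genes 23.7% were lower and 6.77% higher by this rule, and over the 10069 tested genes with a control mean of at least 5 TPM, the fair comparison for genes selected on that level, 28.8% were lower and 4.21% higher. With no fold limit, 118 of the ZNF genes (66.7%) were lower, 15 (8.47%) were higher and 44 passed in neither direction. The backgrounds were 50.9% lower and 21.1% higher over all tested genes and 59.4% lower and 19.8% higher at a control mean of at least 5 TPM. The count of 0 genes higher by 2-fold was also 0 at an unadjusted p under 0.05. The groups did not overlap for 139 genes, 121 lower and 18 higher, which is 78.5% of the members against 81.7% of tested genes with that control level. With the deposited values, the shares of ZNF genes called lower thus lay a few points above those of tested genes with that control level. The shares called higher lay below them.

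The median log2 fold change of the 177 genes was −0.74, with the middle of the distribution between −1.19 and −0.18, against −0.49 for tested genes with a control mean of at least 5 TPM and −0.36 for all tested genes. The extremes were −2.56 and 0.88, and the median gene kept 55.9% of its control level. The median tested gene is itself below 0 with the deposited values. Median-of-ratios, upper-quartile, quantile and median scaling put it at 0.0284, −0.00616, −0.0298 and 0.171, so the first and the last of these moved it above 0. By 2-fold, 31 members were lower and 6 higher with median-of-ratios scaling. The counts were 36 and 6 with upper-quartile scaling, 24 and 6 with quantile normalization, and 21 and 8 with each library's median subtracted. In that order, 17.5%, 20.3%, 13.6% and 11.9% of the members were lower by 2-fold. Of tested genes with the same control level, 15.2%, 16.2%, 15.6% and 11.9% were lower and 11.6%, 10.6%, 7.98% and 13.9% higher. The share of members called lower was thus not above that of those genes after quantile normalization or median subtraction. With no fold limit these scalings gave 86 lower and 36 higher, 90 and 33, 74 and 40, and 70 and 40 in the same order. The median of the ZNF genes stayed below that of the tested genes with the same control level under each of the 4, by 0.28, 0.27, 0.10 and 0.24. A total of 70 genes were lower and 15 were higher at an adjusted p under 0.05 with the deposited values and with all 4 scalings, and the other 92 were not.

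The selection on the control level also carries weight. When ZNF genes were instead taken at a mean of at least 5 TPM in the shFAM111B libraries, there were 114 genes, of which 15 were lower and 4 higher by 2-fold, and the median log2 fold change was −0.15 against −0.21 for tested genes past that level. Taken on the mean of all 6 libraries, there were 152 genes with 46 lower, 2 higher and a median of −0.59 against −0.39. The direction of the difference from other genes was therefore not the same under each choice, and the size of the fall among the 177 genes depends on how they were chosen.

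**Figure D1:**
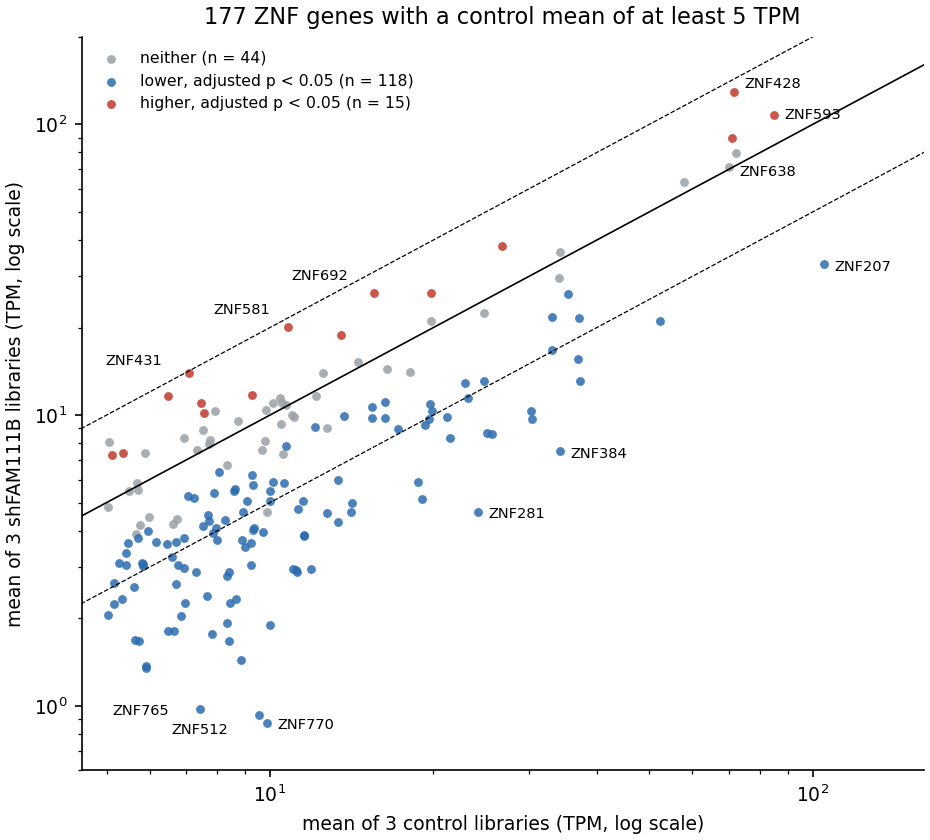
Mean level in 3 control libraries (x axis, TPM, log scale) against the mean in 3 shFAM111B libraries (y axis, TPM, log scale) for each of the 177 ZNF genes, with the line of equality (solid) and 2-fold lines (dashed). The 118 genes that were lower at an adjusted p under 0.05 (blue) lie below the line, the 15 that were higher (red) lie between equality and 2-fold, and 44 passed in neither direction (grey).

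The 5 most abundant members showed that a high level went with no single direction. ZNF207 (also BuGZ), which binds BUB3 and takes part in spindle assembly, was the most abundant in the control at 110.09, 105.31 and 98.90 TPM and fell to 32.71, 37.11 and 29.10 TPM. Its groups lay far apart (log2 fold change −1.64 ± 0.09, SE, limma adjusted p = 8.34e-06). ZNF593, related to a yeast protein of 60S ribosome maturation, measured 76.48, 85.41 and 92.36 TPM in the control and 102.39, 98.32 and 122.95 TPM in shFAM111B cells, a rise of 0.34 ± 0.10 (adjusted p = 0.0207) that did not pass without control replicate 1 or without control replicate 2 (highest adjusted p = 0.069). ZNF428 rose from 65.37, 69.17 and 79.69 to 125.55, 123.00 and 138.11 TPM and was the most abundant ZNF transcript of the knockdown. ZNF787 rose from 69.60, 70.41 and 72.73 to 88.16, 82.67 and 97.35 TPM. ZNF444 had 66.85, 75.94 and 74.12 TPM in the control and 80.51, 77.70 and 81.11 TPM in the knockdown, with a difference of 0.14 ± 0.06 that did not pass (limma adjusted p = 0.0729) but passed after all 4 other scalings. Thus the order at the top changed, with ZNF428 in the place that ZNF207 held.

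The 8 largest falls were taken from members called by 2-fold whose groups did not overlap. ZNF770 fell from 11.13, 10.02 and 8.41 TPM to 0.60, 1.45 and 0.57 TPM, which left 8.86% of its control mean (−2.56 ± 0.21, limma adjusted p = 3.41e-05). ZNF512 fell from 10.28, 10.42 and 7.91 to 0.61, 1.65 and 0.53 TPM (−2.49 ± 0.23, limma adjusted p = 7.30e-05). In both genes shFAM111B replicate 2 was the highest of its group, yet still far below the lowest control library, and 37.1% of the 31-base words of ZNF512 recur in other genes. ZNF281, which binds GC-rich promoters and is known from epithelial to mesenchymal transition and stem cells, fell from 25.96, 23.94 and 22.50 to 4.47, 4.89 and 4.57 TPM (−2.15 ± 0.09, limma adjusted p = 3.15e-06). Its SE was the smallest of the 8. ZNF384, a promoter-binding factor known as a fusion partner in acute leukaemia, fell from 32.45, 33.89 and 36.34 to 5.04, 9.36 and 8.11 TPM.

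ZNF765 had 4.99, 10.84 and 6.46 TPM in the control and 1.12, 1.17 and 0.63 TPM in the knockdown, so the control libraries differed by over 2-fold among themselves and still lay above every knockdown library. Its annotated gene span overlaps that of the neighbouring ZNF525 on the same strand. Overlap of exons was not examined, and the split of reads between them is uncertain. ZNF800 fell from 8.36, 8.95 and 9.27 to 1.41, 1.67 and 1.22 TPM. ZNF669 fell from 10.58, 11.58 and 7.83 to 2.43, 2.07 and 1.17 TPM. ZNF708 fell from 10.56, 7.79 and 6.90 to 1.89, 1.56 and 1.57 TPM. ZNF765, ZNF669 and ZNF708 carry the KRAB-like pattern, and the other 5 genes do not. All 8 falls held at an adjusted p under 0.05 when any 1 library was left out and under the 4 other scalings, where the highest adjusted p was 0.00196.

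**Figure D2:**
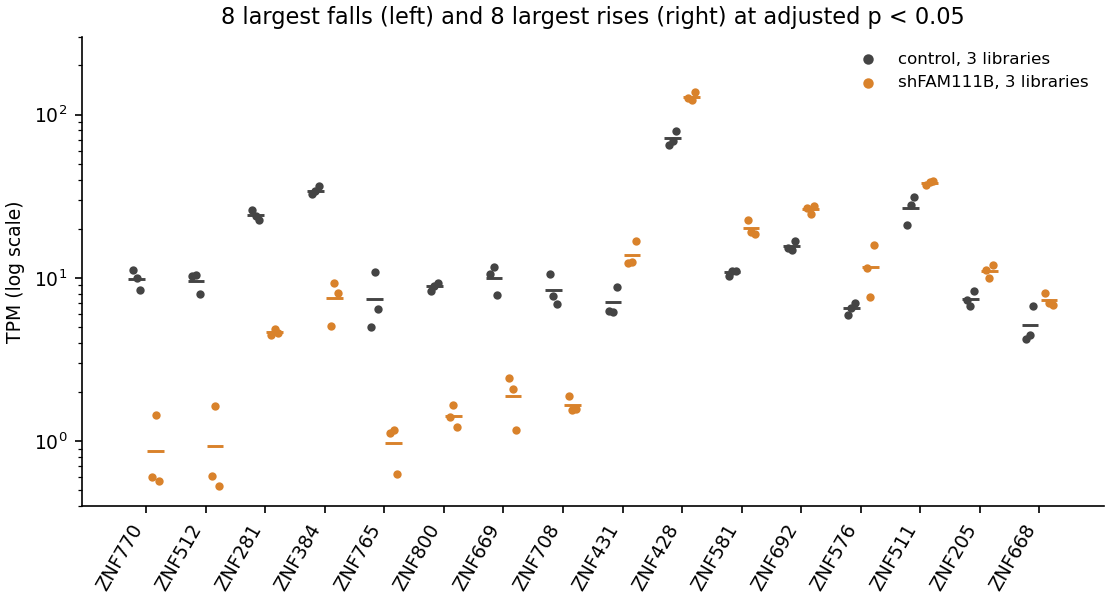
TPM (y axis, log scale) in each of 3 control libraries (dark points) and 3 shFAM111B libraries (orange points), with the group mean as a bar, for the 8 members with the largest falls and the 8 with the largest rises at an adjusted p under 0.05. The knockdown libraries of the 8 falling genes all lie below their control libraries, and those of the 8 rising genes all lie above theirs, with less distance.

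No member rose by 2-fold, so the 15 genes that were higher at an adjusted p under 0.05 are named here after their values were seen. ZNF431 had the largest rise, from 6.23, 6.22 and 8.81 TPM to 12.41, 12.56 and 16.72 TPM (0.88 ± 0.17, limma adjusted p = 0.00242). Without control replicate 3 its change was 1.03 and passed 2-fold. ZNF428 followed at 0.85 ± 0.09 (limma adjusted p = 9.83e-05). ZNF581 rose from 10.22, 11.09 and 11.08 to 22.75, 19.19 and 18.51 TPM (0.84 ± 0.10, limma adjusted p = 0.000195). However, its annotated gene span overlaps those of CCDC106 and ZNF580 on the same strand, and overlap of exons was not examined. ZNF692, which binds a metabolic (AICAR) response element, rose from 15.27, 14.72 and 16.72 to 26.71, 24.65 and 27.57 TPM (0.72 ± 0.08, limma adjusted p = 0.000145). In each of these 4 genes the groups did not overlap.

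The other 11 rises were smaller or rested on fewer libraries. ZNF576 had 5.90, 6.54 and 7.04 TPM in the control and 11.52, 7.62 and 15.84 TPM in the knockdown, and its call was lost in 5 of the 6 analyses that left out a library. ZNF511 rose from 20.95, 28.09 and 31.19 to 36.85, 38.59 and 39.20 TPM, and ZNF205 from 7.35, 6.70 and 8.33 to 11.20, 9.91 and 11.98 TPM. ZNF852, ZNF653 and ZNF787 rose by 0.45, 0.38 and 0.33 on the log2 scale, and their calls held when any library was left out. ZNF668 and ZNF44 (0.45 and 0.31) each lost the call in 5 of those 6 analyses and ZNF133 (0.42) in 4. The call for ZNF593 was lost in 2 and that for ZNF317 (0.38) in 1, without control replicate 1. All 15 were also higher at an adjusted p under 0.05 under each of the 4 other scalings. After median subtraction 8 members were higher by 2-fold, namely ZNF431, ZNF428, ZNF581, ZNF692, ZNF576, ZNF511, ZNF205 and ZNF559.

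A list of members with a described role held 37 symbols, of which 29 were among the 177 genes. Of the 29, 24 were lower at an adjusted p under 0.05, 1 was higher and 4 passed in neither direction, and 13 were lower by 2-fold. That is 82.8% lower, 3.45% higher and 44.8% lower by 2-fold, beside 59.4%, 19.8% and 28.8% of tested genes with a control mean of at least 5 TPM. The list was written with earlier results of these data known. Among factors that bind promoters, ZNF148 (ZBP-89), which binds GC-rich elements, fell from 9.06, 7.04 and 7.36 to 1.85, 1.83 and 1.62 TPM (−1.67 ± 0.13, limma adjusted p = 2.68e-05). ZNF143, an activator of small nuclear RNA and housekeeping promoters that also sits at chromatin loops, measured 14.72, 13.01 and 13.31 TPM in the control and 9.85, 10.51 and 9.36 TPM in the knockdown. Its fall of 0.43 on the log2 scale passed the test (limma adjusted p = 0.00331). The change stood above the median of tested genes with a control mean of at least 5 TPM. Its call was lost under all 4 other scalings, and after quantile normalization and median subtraction its sign turned to 0.0929 and 0.105. ZNF217, an oncogene of an amplified region in breast cancer that binds the CoREST corepressor, fell from 11.90, 11.21 and 9.95 to 2.97, 3.60 and 2.32 TPM. ZNF146, a protein made up almost wholly of fingers, fell from 43.16, 32.36 and 36.11 to 12.65, 14.33 and 12.30 TPM.

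Members with a SCAN domain, which pairs such proteins with each other, included ZNF24, a repressor of the VEGFA promoter, which fell from 19.96, 18.78 and 17.40 to 5.92, 5.61 and 6.09 TPM (−1.52 ± 0.09, limma adjusted p = 8.26e-06). ZNF263 fell from 16.66, 21.18 and 20.14 to 9.35, 9.30 and 9.06 TPM, and ZNF202, a repressor of genes of lipid metabolism, from 5.47, 5.65 and 6.39 to 3.19, 3.61 and 2.29 TPM. The ZNF202 call was lost under 3 of the 4 scalings, all but the upper-quartile one. Of the 11 genes with a SCAN-like pattern, 7 were lower at an adjusted p under 0.05, 0 were higher at that threshold and the median change was −0.77. At 63.6%, the share lower was near the 59.4% of tested genes with that control level.

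Among KRAB members, ZNF274, which brings SETDB1 to the 3′ ends of other zinc finger genes, fell from 22.72, 24.84 and 27.67 to 8.59, 9.77 and 7.65 TPM (−1.43 ± 0.11, limma adjusted p = 3.03e-05). ZNF445, which helps to keep genomic imprints, fell from 7.52, 6.99 and 6.42 to 2.07, 2.53 and 2.16 TPM. ZNF224, a repressor of the aldolase A gene, fell from 5.67, 6.47 and 7.33 to 1.57, 1.55 and 2.29 TPM. Members that repress young retrotransposons were also on the list. ZNF91, which binds SVA elements, measured 16.23, 16.47 and 13.52 TPM in the control against 10.00, 9.73 and 12.20 TPM (−0.50 ± 0.12, limma adjusted p = 0.00729). ZNF93, which binds LINE-1 elements, measured 15.38, 16.51 and 16.98 against 9.99, 9.84 and 9.56 TPM. The calls for ZNF91 and ZNF93 did not hold under every scaling, and ZNF91 changed sign to 0.0217 and 0.0370 after quantile normalization and median subtraction.

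Several genes of the list encode partners of chromatin complexes. ZNF592 and ZNF687, which act together with ZMYND8, fell from 20.21, 20.20 and 23.03 to 9.73, 9.71 and 10.04 TPM and from 12.43, 11.77 and 10.50 to 4.14, 3.84 and 3.51 TPM. ZNF644, a partner of the G9a and GLP methyltransferases, fell from 22.56, 26.05 and 20.95 to 13.08, 11.79 and 9.47 TPM. ZNF335, a subunit of a histone H3K4 methyltransferase complex needed in brain development, fell from 10.58, 11.50 and 12.48 to 5.10, 4.78 and 5.35 TPM. ZNF516, an activator of brown fat genes, had 4.89, 6.16 and 5.26 TPM in the control and 2.89, 3.66 and 3.54 TPM in the knockdown, and its call was lost under all 4 scalings.

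The other genes of the list include some that act on RNA and ribosomes. ZNF326, which links RNA polymerase II to messenger RNA particles, fell from 23.94, 23.19 and 21.59 to 12.90, 13.10 and 12.59 TPM (−0.79 ± 0.07, limma adjusted p = 5.50e-05). ZNF330, a nucleolar protein, fell from 39.67, 36.98 and 34.43 to 22.31, 21.50 and 21.12 TPM. ZNF598, the ubiquitin ligase that recognises collided ribosomes, had 30.70, 32.05 and 36.39 TPM in the control and 25.08, 20.35 and 19.73 TPM in the knockdown, a call that was lost under all 4 scalings. ZNF622, a 60S ribosome maturation factor, measured 33.75, 34.73 and 34.04 TPM against 36.09, 35.38 and 37.76 TPM, a difference of 0.09 ± 0.05 that did not pass (limma adjusted p = 0.181) with the deposited values and passed as higher under the 4 scalings. ZNF638, which works with the HUSH complex to silence unintegrated retroviral DNA, measured 69.48, 65.97 and 74.99 TPM against 69.24, 70.49 and 73.55 TPM (0.02 ± 0.06, limma adjusted p = 0.779). ZNF706 and ZNF830 also passed in neither direction, at 0.14 ± 0.12 and −0.15 ± 0.14. ZNF267, described in hepatic stellate cells and liver cancer, fell from 5.30, 5.19 and 4.60 to 1.91, 2.38 and 1.87 TPM.

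**Figure D3:**
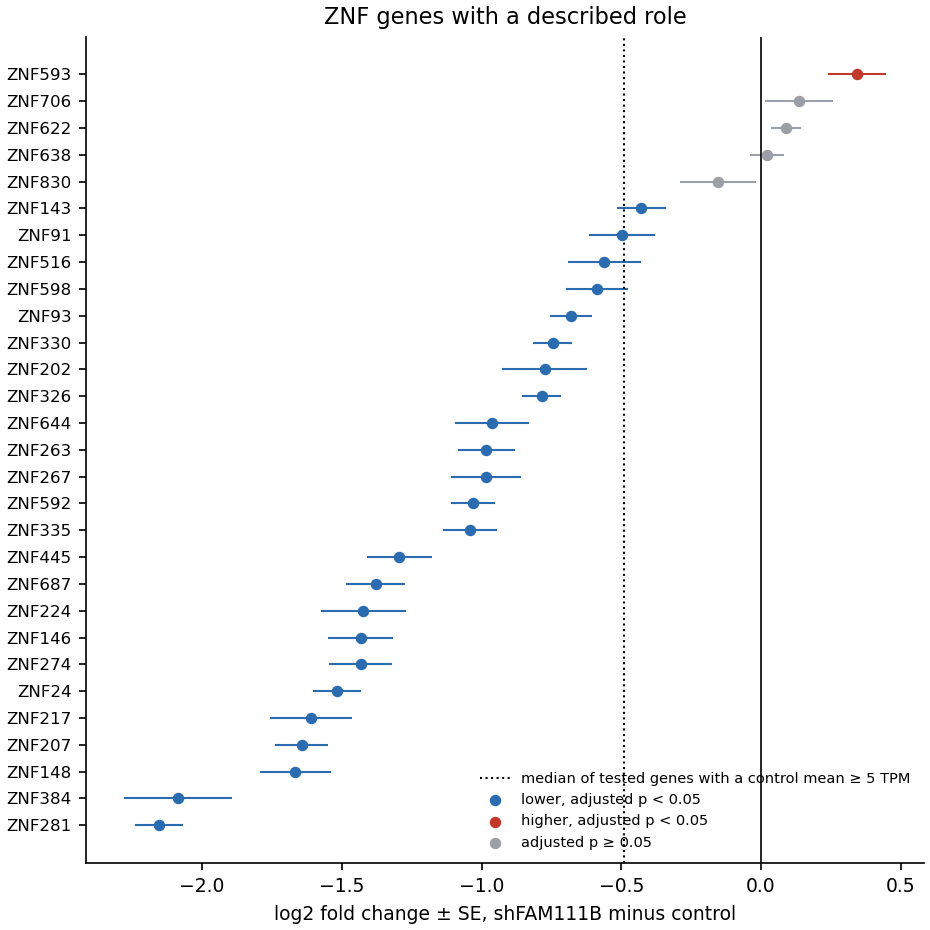
Log2 fold change of shFAM111B minus control (x axis, on the log2(TPM + 1) scale, points with SE bars from limma over 3 libraries a group) for the 29 members with a described role, in order of size. ZNF281 and ZNF384 lie lowest near −2.15 and −2.09, ZNF593 lies highest at 0.34 and is the 1 red point, and the dotted line marks the median of −0.49 of tested genes with a control mean of at least 5 TPM.

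Genes at the edge of the selection did not form a class of their own. Just inside the threshold, ZNF267 had a control mean of 5.03 TPM, ZNF48 of 5.04 TPM and ZNF559 of 5.05 TPM. Just outside it, ZNF629 and ZNF256 had a mean of 4.99 TPM and ZNF816 of 4.98 TPM. ZNF256 measured 4.20, 4.73 and 6.05 TPM in the control and 1.96, 2.26 and 1.54 TPM in the knockdown, and ZNF816 measured 4.68, 5.19 and 5.07 TPM and 1.85, 2.06 and 1.86 TPM, while ZNF48 was at 4.93, 5.27 and 4.92 TPM and 4.60, 5.46 and 4.45 TPM. In 13 members the mean of the control would fall under 5 TPM if 1 control library were left out. ZNF559 is the clearest of these near the edge, with 9.25, 3.52 and 2.38 TPM in the control and 8.31, 9.69 and 6.31 TPM in the knockdown. Its change of 0.74 ± 0.40 did not pass (limma adjusted p = 0.132), but without control replicate 1 it was 1.20 (limma adjusted p = 0.00372). ZNF18 rested on 1 library as well, with 3.17, 2.99 and 23.43 TPM in the control and 4.29, 4.45 and 5.17 TPM in the knockdown. The control libraries spanned over 3-fold in 4 members, ZNF18, ZNF559, ZNF778 and ZNF286A, and the knockdown libraries in 4, ZNF778, ZNF493, ZNF512 and ZNF710.

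Below the threshold, 211 of the 335 ZNF genes were tested. By 2-fold, 44 (20.9%) were lower and 4 (1.90%) were higher, both below the 23.7% and 6.77% of all tested genes, and their median change was −0.57. With no fold limit, 127 (60.2%) were lower and 12 (5.69%) higher, beside 50.9% and 21.1% of all tested genes. The median gene of the 211 kept 52.1% of its control level. Fold changes on the log2(TPM + 1) scale understate the change of such low genes, and the comparison was not matched for level. The 4 that were higher by 2-fold, named after their values were seen, were ZNF56, ZNF703, ZNF385C and ZNF652, and each ended above a mean of 5 TPM in the knockdown. ZNF703, a transcriptional cofactor and oncogene of luminal breast cancer, rose from 4.62, 4.65 and 4.99 to 16.01, 13.39 and 15.87 TPM (1.48 ± 0.10, limma adjusted p = 1.62e-05). ZNF652, a repressor that partners CBFA2T3, rose from 3.81, 4.90 and 4.88 to 10.94, 9.21 and 11.62 TPM (1.07 ± 0.13, limma adjusted p = 0.000268). ZNF56 had 2.12, 1.16 and 2.56 TPM in the control and 12.13, 5.03 and 5.75 TPM in the knockdown, where replicate 1 was the highest. In all, 15 ZNF genes below 5 TPM in the control reached a mean of 5 TPM or more in the knockdown, against 78 members that left that range.

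The fall was deepest in members with long transcripts, and this was shared with other genes. The members were split at 3235 and 4942 nt into short, middle and long classes of 59 genes each, by their longest annotated transcript. Huh7 cells may express a shorter one. Medians of −0.36 in the short, −0.81 in the middle and −0.96 in the long class were found. In other protein-coding genes with a control mean of at least 5 TPM and transcripts of those lengths it was −0.09 (4093 genes), −0.73 (2544 genes) and −1.004 (2592 genes). The median of the ZNF genes was thus below that of other genes in the short and middle classes and above it in the long class. By 2-fold, 8, 21 and 28 members of the 3 classes were lower, which is 13.6%, 35.6% and 47.5%, against 12.4%, 34.9% and 50% of the other genes. As a description across genes, which are not independent replicates, Spearman's rho of the change with transcript length was −0.40 over the 177 members and −0.48 over 9229 other coding genes. Of the 15 higher members, 10 were short, 4 middle and 1, ZNF431, long. That is 16.9%, 6.78% and 1.69% of the members of the 3 classes, beside 33.3%, 10.8% and 6.75% of the other genes. The median of the short class turned to 0.0347, 4.97e-06, 0.15 and 0.17 after median-of-ratios, upper-quartile, quantile and median scaling, while the middle and long classes stayed below 0.

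Within the short class, the 25 genes with a KRAB-like pattern and the 34 without one differed in their counts. Of the former, 20 were lower and 1 was higher at an adjusted p under 0.05, with a median of −0.68, and of the latter 8 were lower and 9 higher, with a median of −0.04. Of other coding genes with short transcripts 42.3% were lower and 33.3% higher, beside 80% and 4% of the 25 and 23.5% and 26.5% of the 34. The median of the 34 turned to 0.35, 0.31, 0.41 and 0.50 after median-of-ratios, upper-quartile, quantile and median scaling, and that of the 25 stayed below 0. In the middle class the medians were −0.77 and −0.84, and in the long class −0.86 and −1.19, so the order was the other way there. Over all lengths the 89 KRAB-like members had a median of −0.76 with 68 lower and 4 higher, and the 88 others had −0.60 with 50 lower and 11 higher. That is 76.4% lower and 4.49% higher of the 89, and 56.8% and 12.5% of the 88. Of tested genes with a control mean of at least 5 TPM, 59.4% were lower and 19.8% higher, so the share lower of the 88 was near that background. The KRAB-like members were also the more uniform, with the middle of their distribution between −1.11 and −0.46, against −1.28 and 0.05 in the others. These splits were not tested, since genes are not replicates, and members without the pattern are not known to lack a KRAB domain.

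The number of fingers showed no such order. The median change was −0.51 in the 33 genes with 0 to 4 finger patterns, −0.88 in 59 genes with 5 to 9, −0.60 in 55 genes with 10 to 14 and −0.76 in 30 genes with 15 or more, and Spearman's rho with the number was −0.03 across the 177 genes. The 30 genes with the most fingers were the most uniform in direction, with 25 lower and 1 higher at an adjusted p under 0.05. That is 83.3% and 3.33%, beside 59.4% and 19.8% of tested genes with a control mean of at least 5 TPM. Their median transcript, 4395.5 nt, was also the longest of the finger classes, and this comparison was not matched for length. The share of 31-base words found in other genes had a rho of 0.07 with the change, and the median was −0.77 in the 71 genes that shared under 1% and −0.60 in the 57 that shared 10% or more. For ZNF286A and ZNF320, which shared 100% and 99.5% of these words with other annotated transcripts, the level is uncertain. By control level, the median was −0.65 in the 52 members at 5 to under 7.5 TPM, −0.80 in 47 at 7.5 to under 10 TPM, −0.59 in 49 at 10 to under 20 TPM and −0.87 in the 29 at 20 TPM or more, against −0.69, −0.63, −0.69 and −0.38 in other coding genes of those levels.

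Chromosome 19 held 74 of the 177 members, chromosome 7 held 17, chromosome 16 held 14 and chromosome 1 held 12. On chromosome 19, 45 members (60.8%) were lower and 8 (10.8%) higher at an adjusted p under 0.05, with a median of −0.59. Elsewhere 73 of 103 (70.9%) were lower and 7 (6.80%) higher, with a median of −0.82. Of other coding genes with a control mean of at least 5 TPM, 35.6% were lower and 36.3% higher on chromosome 19. Elsewhere 62.4% of them were lower and 18.6% higher. Other coding genes showed a like order, with a median of 0.02 over 554 genes of chromosome 19 and −0.55 over 8679 genes elsewhere. The medians of the members were below those of the other genes in both, in a comparison not matched for length or level. On chromosome 19 the median transcript was 4068.5 nt in members and 2577.5 nt in the others, and the median control level 7.86 and 40.3 TPM. By 2-fold, 16 members of chromosome 19 (21.6%) and 41 elsewhere (39.8%) were lower, against 12.5% and 30.2% of the other genes. On chromosome 19 the 53 KRAB-like members had a median of −0.68 and the 21 others one of −0.08, which turned to 0.31, 0.27, 0.28 and 0.46 under the 4 other scalings. On the other chromosomes the 36 KRAB-like members had a median of −0.90 and the 67 others one of −0.79, the same order with a narrower gap.

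Neighbours in a cluster did not always move together. Joining members less than 500000 bases apart gave 15 groups of 4 or more, 8 of them on chromosome 19. Of the 15, 10 held members with changes of both signs. Of the 10069 tested genes with a control mean of at least 5 TPM, 7071 had changes below 0 and 2998 above. At an adjusted p under 0.05, 59.4% of them were lower and 19.8% higher. Whether any group differs from such genes was not tested. At chr19:21082159-21852125, a group of 8 genes, ZNF431 rose while 6 others fell at an adjusted p under 0.05, among them ZNF708 (−1.80) and ZNF100 (−1.37). The selected fingers of ZNF431 and ZNF708 printed above differ in 3 of 63 bases. At chr19:43596392-44237268, ZNF576 and ZNF428 were higher and ZNF45 (−0.76), ZNF224 (−1.42) and ZNF227 were lower. The group of 7 genes at chr19:55476332-56160893, which holds ZNF581, ZNF787 and ZNF444, was the 1 with a median above 0 (0.14) in the deposited values, with 2 genes higher, 1 lower and 4 in neither direction, and its median transcript length was 2021 nt. By contrast, all 10 members at chr19:57599885-58277495, which include ZNF274, had changes below 0 in the deposited values, and 8 of them passed. The medians of 4 other groups turned above 0 under all 4 scalings, those with ZNF48, ZNF559, ZNF93 and ZNF428 among their members. On chromosome 1, the 4 members at chr1:247036784-247331846, ZNF670, ZNF669, ZNF124 and ZNF496, were all lower, with a median of −1.35.

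**Figure D4:**
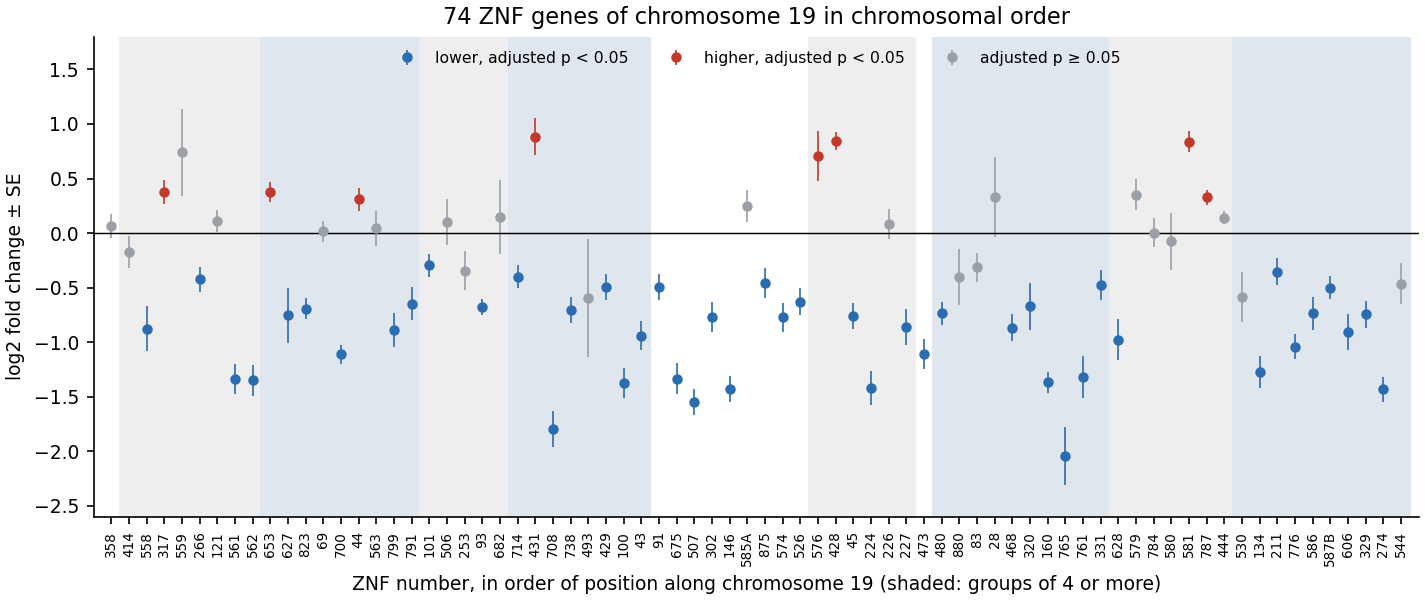
Log2 fold change of shFAM111B minus control (y axis, points with SE bars from limma over 3 libraries a group) for the 74 members on chromosome 19 in order of position, with groups of 4 or more shaded in alternating tones. The 45 lower genes (blue) and 8 higher genes (red) are interspersed, and the highest point, ZNF431 at 0.88, stands next to ZNF708 at −1.80.

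The proteins that KRAB zinc fingers work through were examined as lists written with earlier results of these data known. Of 26 genes of the corepressor machinery, 18 were lower and 2 higher at an adjusted p under 0.05, with 6 lower and 1 higher by 2-fold, and the median was −0.51. That is 69.2% lower, 7.69% higher and 23.1% lower by 2-fold. Over all tested genes 50.9% were lower and 21.1% higher, and 23.7% were lower by 2-fold. Every gene of the list had a control mean of at least 5 TPM. Over tested genes with that level 59.4% were lower, 19.8% higher and 28.8% lower by 2-fold. By 2-fold the list thus lay near the first background and below the second. TRIM28, the corepressor that KRAB domains bind, stayed abundant at 559.83, 536.10 and 576.69 TPM in the control and 429.24, 422.51 and 437.80 TPM in the knockdown (−0.37 ± 0.04, limma adjusted p = 0.000196). SETDB1, the methyltransferase it recruits, fell from 24.55, 22.32 and 21.55 to 13.77, 13.64 and 13.74 TPM, and its partner ATF7IP from 10.21, 9.76 and 8.68 to 3.30, 3.82 and 2.70 TPM. SMARCAD1, a chromatin remodeller that binds TRIM28, had the largest fall of the list, from 15.67, 12.79 and 12.86 to 2.75, 3.30 and 2.44 TPM (−1.95 ± 0.13, limma adjusted p = 1.55e-05). UHRF1 and MORC3 fell by 1.78 and 1.74, GATAD2A and RBBP4 by 1.29 and 1.05 on the log2 scale. CHD3, a remodeller that TRIM28 recruits, was higher, at 19.33, 18.73 and 23.07 TPM in the control and 41.52, 40.45 and 44.47 TPM in the knockdown (1.02 ± 0.09, limma adjusted p = 5.54e-05). The median of the list turned to 0.0184 after median subtraction.

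Of the HUSH complex and MORC2, TASOR, MPHOSPH8 and PPHLN1 were lower, with changes of −0.93, −0.76 and −0.90, and MORC2 passed in neither direction. Of the heterochromatin methyltransferases, SUV39H1, SUV39H2 and EHMT1 were lower, while EHMT2 (G9a) rose from 19.28, 19.69 and 21.49 to 42.56, 37.29 and 48.64 TPM (1.04 ± 0.10, limma adjusted p = 9.18e-05). EHMT2 thus moved against its partners EHMT1 and ZNF644.

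Other zinc finger families were read beside all tested genes, of which 50.9% were lower and 21.1% higher. Of 34 tested ZBTB genes 24 were lower and 3 higher at an adjusted p under 0.05 (median −0.80), of 13 ZSCAN genes 7 and 0 (−0.60), which at 53.8% lower is near that background, of 6 ZKSCAN genes 4 and 0 (−0.76) and of 11 ZFP genes 7 and 1 (−0.74). The RNA-binding ZC3H genes had 12 of 14 lower and 0 higher (−1.02), and the KLF genes 10 of 13 lower and 1 higher (−1.29). Of 4 EGR genes 1 was tested, EGR1, which fell from 9.33, 8.47 and 9.90 to 1.35, 1.41 and 1.27 TPM (−2.12). KLF6 fell from 57.92, 55.93 and 53.51 to 4.91, 5.30 and 4.93 TPM, a larger change than any ZNF member. Among ubiquitous factors, 6 of 7 were lower, with CTCF at −1.07, YY1 at −1.04, SP1 at −1.33 and SP3 at −1.79, and MAZ was higher at 0.13 ± 0.05 (limma adjusted p = 0.0492). At a control mean of at least 5 TPM, 59.4% of tested genes were lower and 19.8% higher. The ZC3H, KLF and ubiquitous genes had median control levels of 22.3, 16.3 and 32.4 TPM. Median transcripts of the ZC3H and ubiquitous genes were 5937 and 6359 nt. Of other coding genes in the long class, 79.9% were lower, with a median of −1.004. These families were not matched for level or length. Their medians stayed below 0 under the 4 other scalings, and none was compared with the ZNF genes by a test.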

How the data were processed

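RNA was sequenced from Huh7 cells in 3 control and 3 shFAM111B libraries made, per the labels, with a stranded mRNA kit after poly(A) selection. The authors deposited TPM for each library and gene. The submitters' processing notes name RSEM, DESeq2 and hg38, without versions or settings. The deposited columns of the authors' group means (TPM) and of their own comparison (fold change as a ratio, its log2 value, p-value and adjusted p-value) were left unused. TPM are relative, so a rise of abundant genes lowers all others, and TPM keep no depth, so depth is unknown, no counting error can be given and no count test was used. The values of all listed genes summed to 978634 to 997094 TPM a library.

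The filter kept 14394 of 60666 genes, those reaching 1 TPM in 3 or more libraries. Log2(TPM + 1) was compared with limma's moderated test with a trend (limma 3.58.1, R 4.3.3), without covariates, with two-sided tests and Benjamini-Hochberg adjustment over all tested genes. Fold changes on this scale understate the change of low genes. Calls needed a 2-fold change and an adjusted p under 0.05, and calls without the fold limit were counted too. The fit was tested on simulated data. With 3 against 3 libraries an exact permutation test of 1 gene could not go below 0.1, so none is given.

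The members, the gene lists and the tests were chosen with earlier results of these data known, and the KRAB-like pattern was set after the values were seen. Named genes are FAM111B, the 5 members with the highest control mean, up to 8 with the largest falls and 8 with the largest rises among calls with groups that do not overlap, 3 genes either side of the level of 5 TPM, a list of 37 symbols with a described role and called corepressor genes. Others were named after their values were seen. Gene positions, transcripts, finger patterns and shared 31-base words came from GENCODE v29 on GRCh38, which held 58420 of the genes (96.3%). Amino acid sequences were not used here.

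Replicate numbers 1 to 3 occur in both groups. Residuals of libraries with the same number correlated at 0.05, 0.03 and 0.09, and the labels name no shared batch, so the numbers were not taken as pairs. Alternatives were other filters, pseudocounts, scalings, call rules and member choices, the replicate block, a fit without the trend and leaving out each library. Tables and figures were made in Python 3.11.15 with pandas 2.3.3, numpy 2.4.6 and matplotlib 3.10.9.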

Additional observations from a re-analysis of the deposited data

How the results depend on the processing

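The count of ZNF genes lower by 2-fold (57) was 31 after median-of-ratios scaling, 36 after upper-quartile scaling, 24 after quantile normalization, 21 after median subtraction and 21 with a pseudocount of 5. With that pseudocount, 11.9% of the members and 16.4% of tested genes past the same level were lower by 2-fold. The count higher by 2-fold (0) was 6, 6, 6 and 8 under those scalings. At an adjusted p under 0.05 the 118 lower and 15 higher genes became 74 lower after quantile normalization and 70 after median subtraction, and 36, 33, 40 and 40 higher under the scalings. The median log2 fold change (−0.74) was −0.34, −0.37, −0.25 and −0.20 under the scalings, −0.83 with a pseudocount of 0.1 and −0.45 with one of 5. The median minus that of tested genes past the same level (−0.24) was −0.10 after quantile normalization, −0.31 with a pseudocount of 0.1 and −0.0587 with one of 5. Which scaling is nearest to the RNA content of the cells was not tested.

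Chosen on the mean of all 6 libraries, 2 genes were higher by 2-fold and the median was −0.59. Chosen on the shFAM111B mean, 15 genes were lower and 4 higher by 2-fold, 47 and 24 at an adjusted p under 0.05, the median was −0.15 and the difference from tested genes past the same level turned to 0.0587. Chosen on a control mean of at least 10 TPM, there were 78 genes, with 27 lower by 2-fold, 49 lower and 8 higher at an adjusted p under 0.05, and a difference of −0.29. These are other sets of genes. Members with a finger pattern, an alternative added after seeing the data in which GENCODE coding sequences stood in for RefSeq proteins, gave 57 lower.

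Leaving out each library in turn gave 56 to 61 lower and 0 to 1 higher by 2-fold, 110 to 118 lower and 10 to 15 higher at an adjusted p under 0.05, medians of −0.77 to −0.71 and differences of −0.27 to −0.22. The genes higher by 2-fold were ZNF559 without control replicate 1 and ZNF431 without control replicate 3. Of the 133 calls, 17 were lost without at least 1 library. With the replicate block, the counts were 57 lower and 0 higher by 2-fold and 118 lower and 13 higher without the fold limit, and ZNF44 and ZNF668 lost their calls.

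Of the 139 members with a change below 0, 17, 16, 27 and 32 turned above 0 after median-of-ratios, upper-quartile, quantile and median scaling, and no member turned the other way. Among genes chosen by rule these were ZNF48 (0.33, 0.29, 0.42 and 0.48 in that order), ZNF830 (0.26, 0.22, 0.38 and 0.38), ZNF143 (0.0929 and 0.105 after quantile and median scaling) and ZNF91 (0.0217 and 0.0370). ZNF638 turned without control replicate 2 (−0.0221) or shFAM111B replicate 3 (−0.00383), and its values with a library left out ran from −0.0221 to 0.0690. ZNF18, ZNF710 and ZNF778, named for their spread, were also among those that turned under at least 1 scaling. The median of the members with short transcripts turned to 0.0347, 4.97e-06, 0.15 and 0.17 under the 4 scalings, and after median subtraction that of members with 0 to 4 finger patterns turned to 0.0218 and that of the corepressor list to 0.0184. The medians of the members by chromosome, by KRAB-like pattern, by the other length and finger classes and of the other gene lists kept their sign under 16 alternatives. Of the crossed splits, run under the 4 scalings only, members without a KRAB-like pattern turned in the short class and on chromosome 19, as did the medians of 4 gene groups.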
